A study of Mus musculus with 6 samples.

Results

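The 8 genes described here encode the Sm proteins, the core of the small nuclear ribonucleoproteins (snRNPs) that carry out splicing. They were chosen by name and not by their values, and all 8 were found by symbol among the 54532 gene rows of the deposited table: Snrpb, Snrpd1, Snrpd2, Snrpd3, Snrpe, Snrpf, Snrpg and Snrpn. The table was made from RNA of mouse CD4 T cells taken from spleen and lymph nodes of C57BL/6 animals. One group, called WT here, is labelled iCD4-PRMT5fl/fl and so carries floxed alleles of Prmt5 (replicates 1, 2 and 4). The other, called KO, is labelled iCD4-PRMT5 delta/delta (replicates 1, 4 and 5). The sources used here give neither what drives the deletion nor the age of the animals. The treatment label of all 6 samples names antibodies to CD3 and CD28 for 48 h, while all 6 titles contain the word rest, so the state of the cells is uncertain and is shared by both groups. The deposited table also holds WT and KO columns without the word rest, which matched no sample and were not used. A code in the descriptions reads CCPF22 for WT 1, WT 2 and KO 1, and CCPF24 for WT 4, KO 4 and KO 5. Its meaning is not given, and its groups are called library series 22 and series 24 here.

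Sm proteins close into a ring around a short site on the U1, U2, U4 and U5 small nuclear RNAs. The ring is built in the cytoplasm from the pairs B and D3, and D1 and D2, and from the trio E, F and G, with the help of the methylosome and the SMN complex. PRMT5, the enzyme of the methylosome, places symmetric dimethyl marks on arginines in the tails of B, D1 and D3. These are marks on proteins, and the data here are amounts of RNA per gene. Snrpn encodes SmN, a close relative of SmB that is known from brain and is expressed from the paternal allele.

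The promoter windows of 4 members, picked after the values were seen, are given first. Whether promoters play a part in how the members vary between libraries was not tested. Snrpd2, Snrpe and Snrpg move with one another over the libraries below, and Snrpf has another pattern. Each window runs from 250 bases before to 50 bases after the transcript start in RefSeq on GRCm38.p6. The windows are chr7:19149588-19149887 on the plus strand for Snrpd2, chr1:133610231-133610530 on the minus strand for Snrpe, chr6:86371290-86371589 on the plus strand for Snrpg and chr10:93589609-93589908 on the minus strand for Snrpf. Capitals mark matches, on either strand, to the 7 motifs named after the sequences.
Snrpd2: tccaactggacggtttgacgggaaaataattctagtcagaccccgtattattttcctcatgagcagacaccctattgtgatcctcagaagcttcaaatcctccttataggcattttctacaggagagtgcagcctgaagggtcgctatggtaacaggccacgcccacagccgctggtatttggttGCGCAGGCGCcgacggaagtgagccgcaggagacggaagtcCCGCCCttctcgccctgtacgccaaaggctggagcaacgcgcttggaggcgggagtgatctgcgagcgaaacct
Snrpe: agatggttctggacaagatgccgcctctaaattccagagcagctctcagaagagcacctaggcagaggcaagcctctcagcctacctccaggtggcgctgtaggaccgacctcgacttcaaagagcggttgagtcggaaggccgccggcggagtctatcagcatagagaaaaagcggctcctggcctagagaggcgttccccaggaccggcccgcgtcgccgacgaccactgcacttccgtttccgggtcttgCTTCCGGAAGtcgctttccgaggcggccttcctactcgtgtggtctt
Snrpg: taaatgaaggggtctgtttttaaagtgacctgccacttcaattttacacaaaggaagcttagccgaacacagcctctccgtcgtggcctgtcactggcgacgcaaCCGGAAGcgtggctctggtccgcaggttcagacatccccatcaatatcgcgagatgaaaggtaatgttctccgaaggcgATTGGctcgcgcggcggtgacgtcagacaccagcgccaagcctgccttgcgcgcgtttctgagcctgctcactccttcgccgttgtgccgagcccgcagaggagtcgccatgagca
Snrpf: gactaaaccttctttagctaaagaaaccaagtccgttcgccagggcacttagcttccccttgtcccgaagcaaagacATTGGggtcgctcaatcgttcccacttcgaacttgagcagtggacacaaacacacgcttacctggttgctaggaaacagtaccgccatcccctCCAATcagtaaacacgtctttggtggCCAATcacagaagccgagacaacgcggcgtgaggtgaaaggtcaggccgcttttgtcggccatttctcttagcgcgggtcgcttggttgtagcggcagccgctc

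The ETS factor core CCGGAAG was found in the Snrpg window once and in the Snrpe window 2 times, as overlapping matches on opposite strands, and 8.86% of 32817 windows of the same length hold it. The Snrpd2 window has 1 GC box (GGGCGG, in 35.6% of all windows) and 1 NRF1 core (in 6.22%). The Snrpf window has 3 CCAAT boxes and the Snrpg window 1, a motif held by 37.4% of windows. The other 3 motifs have no match in any of the 4 windows. The TATA box, spelled TATAAA, occurs in 13.6% of all windows. The E box, spelled CACGTG, occurs in 7.15% of all windows. The YY1 core, spelled AAGATGGCG, occurs in 1.40%. With 20 CpG dinucleotides in Snrpd2 and Snrpf, 24 in Snrpe and 26 in Snrpg, the windows hold more CpGs than 73.5% to 83.1% of all windows. Among the windows shown, Snrpd2, Snrpe and Snrpg share no motif of this list that Snrpf lacks. Snrpb and Snrpd3, which were also lowest in WT 1, are not shown. The Snrpd3 window has 1 GC box and 2 CCAAT boxes. These matches are descriptions of the letters only.

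Prmt5 itself, which checks the labels, was lower in each KO library than in every WT library. Robust FPM, the unit of all levels here, are fragments of a gene after scaling of the library by the authors, and values are given in the order WT 1, WT 2, WT 4 and KO 1, KO 4, KO 5. Prmt5 stood at 34.9, 41.0 and 43.9 FPM in WT and 24.4, 23.8 and 21.5 FPM in KO. Its RNA was thus lower but still present in KO, at a fitted 0.58-fold level (95% interval 0.47 to 0.72). What this remaining RNA comes from was not tested. The difference of KO minus WT on the log2(FPM + 0.5) scale was -0.78 (95% interval -1.10 to -0.46), which was not called after adjustment over the genes tested (limma adjusted p = 1, unadjusted p = 0.00049). T cell markers were present at a summed level of 2887 to 3660 FPM over 10 genes, lowest in WT 1, and Cd4 measured 388.8 to 465.0. Summed levels in WT and KO were 171 to 701 and 447 to 1108 for 8 myeloid markers, and 15.4 to 26.6 and 15.5 to 22.4 for 7 B cell markers. They were 76.0 to 92.9 and 89.4 to 104.6 for 8 CD8 T and NK cell markers, and 8.20 to 14.4 and 9.90 to 14.9 for 6 erythroid and platelet markers, among which Hbb-bs and Hba-a1 were listed at 0 in all 6 libraries. The myeloid sums did not overlap between the library series. They were 171.3, 269.3 and 446.9 in WT 1, WT 2 and KO 1 of series 22. In WT 4, KO 4 and KO 5 of series 24 they were 701.2, 512.9 and 1108.4. These are bulk samples, in which fewer cells of a type and less RNA per cell cannot be told apart. WT 1 stands apart: 1965 olfactory and vomeronasal receptor genes, which T cells are not known to use, summed to 0.295 FPM per kb of exon there against 0.0141 to 0.0813 in the other libraries. A single gene, Gm26870, took 8.84% of the gene sum of WT 1, where the top gene of each other library, Rn7sk, took 2.31% to 3.02%. The part of these features in the low Sm values of WT 1 was not tested.

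Among the members whose proteins PRMT5 methylates, Snrpb (ENSMUSG00000027404.15, GRCm38 chromosome 2, 130171414 to 130179403, minus strand) varied most between libraries. It encodes SmB and its splice form B'. Its level was 56.7 in WT 1, 83.4 in WT 2 and 88.1 in WT 4, and 96.4 in KO 1, 63.0 in KO 4 and 79.8 in KO 5. The lowest value was a WT library, the highest a KO library, and the groups overlapped. Means were 76.1 ± 16.9 in WT and 79.7 ± 16.7 in KO (SD, n = 3 each). The KO minus WT difference was 0.09 on the log2 scale (SE 0.226, 95% interval -0.44 to 0.61, limma adjusted p = 1), and it was -0.13 with ERCC scaling. The interval runs from a 0.739-fold to a 1.53-fold level.

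Snrpd3 (chromosome 10, 75517551 to 75537381, plus strand), which encodes the ring neighbour of SmB, was steadier. It measured 21.6, 24.7 and 26.8 in WT and 27.0, 28.6 and 24.2 in KO. WT 1 was again the lowest library, and KO 4 the highest. The log2 difference was 0.10 (SE 0.137, 95% interval -0.22 to 0.41, limma adjusted p = 1), and -0.12 with ERCC scaling.

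Snrpd1, on chromosome 18, encodes the third Sm protein that PRMT5 methylates. Its levels were 31.3, 31.7 and 28.6 in WT and 31.4, 25.8 and 26.3 in KO. The 3 libraries of series 22 lay within 0.4 FPM of each other, above all 3 of series 24, whatever the genotype. The KO minus WT difference was -0.07 (SE 0.113, 95% interval -0.33 to 0.19, limma adjusted p = 1), and it was -0.28 with ERCC scaling, the lowest value of a member there.

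Of the other ring members, Snrpd2 (chromosome 7, 19149722 to 19153542, plus strand) encodes the partner of D1. It measured 32.0, 48.6 and 42.4 in WT and 51.1, 43.4 and 38.8 in KO. Its log2 difference of 0.16 (SE 0.188, 95% interval -0.27 to 0.60, limma adjusted p = 1) was the highest among the members and was -0.06 with ERCC scaling. Without WT 1 it was 0.0041.

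Snrpe (chromosome 1, 133603871 to 133610291, minus strand), Snrpf (chromosome 10, 93583029 to 93589706, minus strand) and Snrpg (chromosome 6, 86371304 to 86379328, plus strand) encode the E, F and G trio. Snrpe measured 47.9, 61.3 and 60.5 in WT and 65.8, 55.0 and 52.4 in KO. Snrpg measured 39.3, 59.7 and 53.1 in WT and 63.1, 49.0 and 46.6 in KO. In both genes WT 1 was lowest and KO 1 highest, so that the 2 extremes lay in the same library series and in different genotypes. Snrpf measured 38.3, 37.9 and 30.8 in WT and 38.9, 29.0 and 29.4 in KO, with a gap between the series in place of a low WT 1. The KO minus WT differences were 0.05 for Snrpe (SE 0.154) and 0.11 for Snrpg (SE 0.193), which became -0.16 and -0.10 with ERCC scaling. That of Snrpf was -0.02 (SE 0.110) and became 0.0083 with total-sum scaling and -0.24 with ERCC scaling. For all 3 the limma adjusted p was 1.

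**Figure D1:**
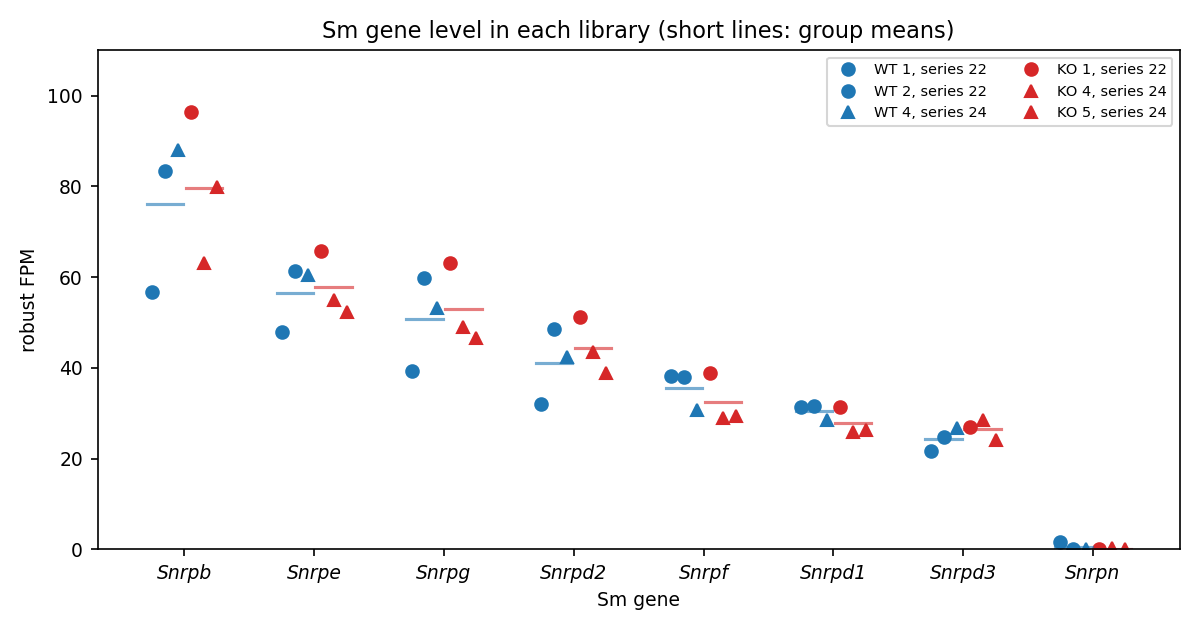
Level of each Sm gene in robust FPM (vertical axis) in the 6 libraries (blue WT, red KO, circles series 22, triangles series 24, short lines group means). The WT and KO points overlap for all 8 genes, WT 1 is the lowest point of Snrpb, Snrpe, Snrpg, Snrpd2 and Snrpd3, and Snrpn lies at 0.1 to 1.6.

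Snrpn (chromosome 7, 59982495 to 60140219, minus strand) was near absent. It was listed at 0.1 in WT 2, WT 4, KO 1 and KO 5, at 0.3 in KO 4 and at 1.6 in WT 1, and its mean of 0.383 over the libraries left it out of the test. Per kb of exon, the WT 1 value was 0.741 and those of the other libraries 0.0463 to 0.139. WT 1 was also the library with the highest signal at the receptor genes above, and the part of that signal in the Snrpn value was not tested. Without a filter on low values the log2 difference of KO minus WT was -0.35 (limma adjusted p = 1). Snurf, a coding gene that lies within Snrpn on the same strand, was listed at 0 in all 6 libraries, and how fragments in the overlap were assigned is uncertain. Over the best alignment of their coding sequences, 686 bases long, Snrpb and Snrpn were 80.9% identical.

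In sum, 0 of the 7 members tested were called in KO against WT by limma at an adjusted p below 0.05, and 0 had an unadjusted p below 0.05. Over all 14944 genes, limma called 0% as higher and 0% as lower, and 0.248% had an unadjusted p below 0.05. That share is smaller than a threshold of 0.05 would give if no gene differed. A missed call in this comparison therefore tells little about a single gene. No member had WT and KO values that do not overlap, against 1.09% of all genes higher and 1.79% lower in KO. Of the 7 members, 5 had a positive difference and 2 a negative one, with a median of 0.09 beside 0.01 for all genes. With ERCC scaling 0 of 7 were positive, at a median of -0.13 beside -0.20 for all genes. The ERCC share of a library ran from 0.752% in WT 1 to 1.59% in WT 2, which share genotype and series. ERCC scaling shifts all genes of a library by a common factor. Without WT 1, 2 of 7 were positive with a median of -0.05, and without KO 1, 0 of 7 with a median of -0.13.

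The intervals bound what the 6 libraries could show. A 2-fold difference lay outside the 95% interval of 7 of 7 members, as for 85.1% of all genes. A 1.5-fold difference lay outside that of 5 of 7, as for 60.1% of all genes. The exceptions were Snrpb and Snrpd2. A missed threshold does not show that the levels were the same in both genotypes.

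**Figure D2:**
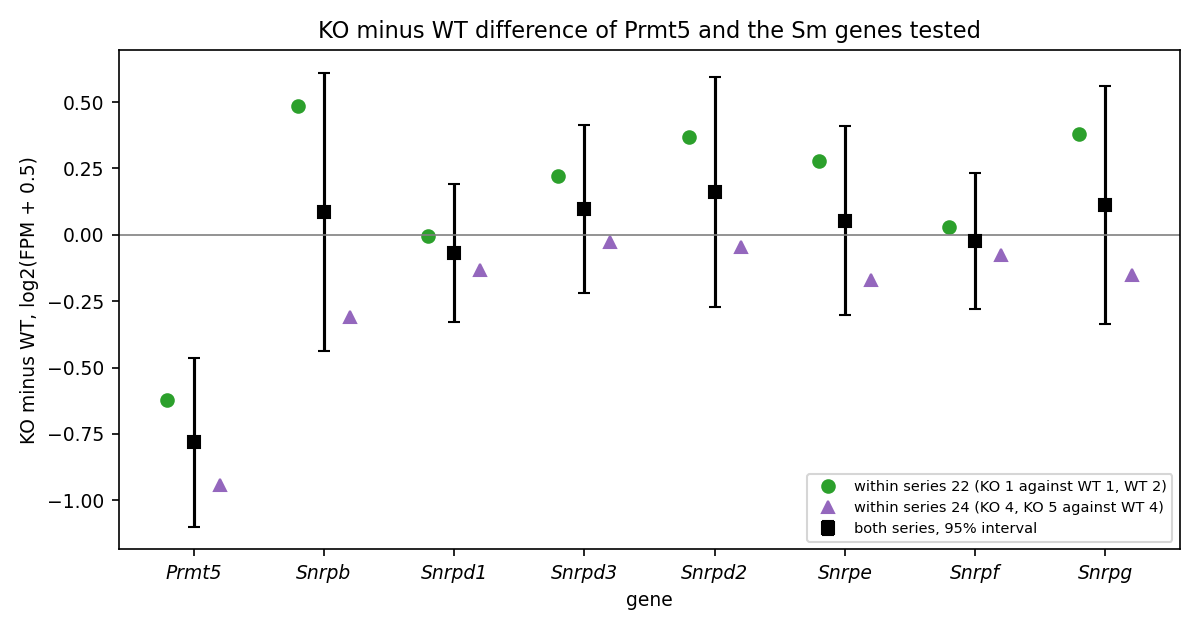
KO minus WT difference on the log2(FPM + 0.5) scale (vertical axis) for Prmt5 and the 7 Sm genes tested, as the fitted value with its 95% interval (black squares) and within series 22 (green circles) and series 24 (purple triangles). Prmt5 is at -0.78 and below 0 in both series, and every Sm gene interval includes 0.

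The genotype difference was also computed within each library series. Within series 22, where KO 1 is set against WT 1 and WT 2, the members had a median of 0.28. Within series 24, where KO 4 and KO 5 are set against WT 4, the median was -0.13. The fits without WT 4 and without KO 1 give these same contrasts in turn. The median of all genes kept was 0.11 and -0.07 in them. For Snrpb the values were 0.48 and -0.31, for Snrpg 0.38 and -0.15, for Snrpd2 0.37 and -0.05, for Snrpe 0.28 and -0.17 and for Snrpd3 0.22 and -0.03. Snrpf was at 0.03 and -0.08, and Snrpd1 at -0.0045 and -0.13, the 2 values closest to 0 within series 22 but not within series 24. Each series has a single library of one genotype, so that a single library and the genotype cannot be told apart within it.

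The test of the difference between the series called 0 of the 7 members, and 0 had an unadjusted p below 0.05, beside 0% of all genes called in either direction and 2.47% at an unadjusted p below 0.05. The value of series 24 minus series 22 was -0.80 for Snrpb (SE 0.374, 95% interval -1.72 to 0.12, limma adjusted p = 0.678), and those of the others ranged from -0.53 for Snrpg to -0.11 for Snrpf. All 7 were negative as deposited, and with median-of-ratios scaling Snrpd1 and Snrpf turned to 0.06 and 0.09. The median was -0.42 beside -0.21 for all genes. Without WT 1 the median of the members was -0.15 beside -0.17 for all genes, and the value of Snrpb was -0.52. Without WT 2 the members' median was -0.62 and the value of Snrpb -1.07. With ERCC scaling the members' median was -1.07 beside -0.84 for all genes.

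The 2 library series were also compared across genotype. The summed myeloid markers were higher in every library of series 24 than in any of series 22. The part of this in the differences between the series was not tested. Snrpf was lower in series 24, at 29.7 ± 0.945 FPM against 38.4 ± 0.503 in series 22 (SD, n = 3 each). Its log2 difference was -0.36 (SE 0.110, 95% interval -0.61 to -0.10), at -0.30 within WT and -0.41 within KO, and it did not pass over all genes (limma adjusted p = 0.431, unadjusted p = 0.0127). Snrpd1 measured 26.9 ± 1.49 in series 24 and 31.5 ± 0.208 in series 22 (SD, n = 3 each), a log2 difference of -0.20 (SE 0.113, limma adjusted p = 0.669). These 2 genes were the members whose series do not overlap, both lower in series 24, against 6.14% of all genes lower and 14.3% higher. The 5 other members had log2 differences from -0.13 (Snrpg) to 0.09 (Snrpd3), with overlapping series. Limma called 0 of 7 members, 1 of them (Snrpf) with an unadjusted p below 0.05. Over all genes it called 0.00669% as higher and 0.134% as lower, and 8.81% had an unadjusted p below 0.05, 2.84% of all genes being lower in series 24. Without KO 1, Snrpb, Snrpd2, Snrpe and Snrpg turned to 0.35, 0.10, 0.16 and 0.13.

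The members were put in 2 groups, those with a low WT 1 and those with a gap between the series, after their values were seen. Centred on its own mean, WT 1 was at -0.43 for Snrpb, -0.40 for Snrpd2, -0.38 for Snrpg, -0.24 for Snrpe and -0.23 for Snrpd3. In KO 1 the same genes stood at 0.33, 0.27, 0.30, 0.21 and 0.09. In WT 2 Snrpd3 stood at -0.04, while Snrpb, Snrpd2, Snrpg and Snrpe stood at 0.12, 0.20, 0.22 and 0.11. These genes thus shared a low WT 1 but not a single pattern over all libraries. Snrpf and Snrpd1 were above their means in WT 1, at 0.18 and 0.10, and stayed within 0.16 to 0.20 (Snrpf) and 0.10 to 0.12 (Snrpd1) over the 3 libraries of series 22. In KO 4 Snrpb stood at -0.28 and Snrpd3 at 0.17, while Snrpd1, whose protein is the other ring neighbour of SmB, stood at -0.17. The spread between members, as the SD of the 7 centred values, was largest in WT 1 at 0.245 and next in KO 4 at 0.155, against 0.0808 to 0.103 in the other 4 libraries.

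**Figure D3:**
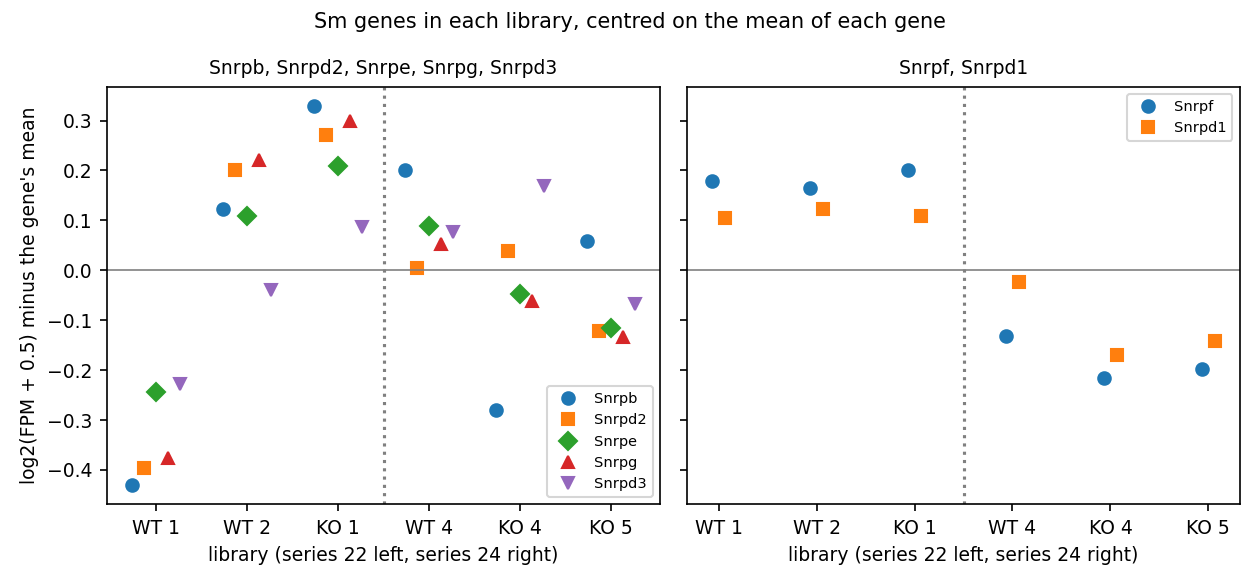
Level of each tested Sm gene on the log2(FPM + 0.5) scale minus the mean of that gene over the 6 libraries (vertical axis), by library, series 22 left and series 24 right of the dotted line. On the left panel WT 1 is lowest, at -0.43 to -0.23, and on the right panel Snrpf and Snrpd1 are above 0 in all of series 22 and below 0 in all of series 24.

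The summed level of the 7 members was 267.1, 347.3 and 330.3 FPM in WT and 373.7, 293.8 and 297.5 in KO. The groups overlapped, with the lowest sum in a WT library and the highest in a KO library. The genes of the methylated proteins, Snrpb, Snrpd1 and Snrpd3, made up 41.0%, 40.3% and 43.4% of it in WT and 41.4%, 40.0% and 43.8% in KO. That share varied less between libraries than the share of Snrpb alone, which ran from 21.2% in WT 1 to 26.8% in KO 5.

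Levels of different genes were compared per length, and their order depended on the length used. Per kb of all annotated exons, the means over 6 libraries were 41.7 ± 4.79 FPM for Snrpe, 39.5 ± 5.55 for Snrpf, 39.4 ± 7.68 for Snrpb and 33.0 ± 5.57 for Snrpg (SD, n = 6). Those of the D proteins were lower, at 16.3 ± 2.62 for Snrpd2, 14.2 ± 1.30 for Snrpd1 and 7.40 ± 0.724 for Snrpd3. The ranges of neighbours in this order overlapped for Snrpe and Snrpf, Snrpf and Snrpb, Snrpb and Snrpg, and Snrpd2 and Snrpd1, and were apart between Snrpg and Snrpd2 and between Snrpd1 and Snrpd3. Per kb of the principal coding transcript, the order was Snrpe at 113.6 ± 13.1, Snrpb at 67.1 ± 13.1, Snrpg at 49.1 ± 8.29, Snrpf at 39.5 ± 5.55, Snrpd1 at 34.0 ± 3.12, Snrpd2 at 30.1 ± 4.83 and Snrpd3 at 8.39 ± 0.821 (SD, n = 6). Here the ranges of Snrpb and Snrpg, Snrpg and Snrpf, Snrpf and Snrpd1, and Snrpd1 and Snrpd2 overlapped, and those of Snrpe and Snrpb and of Snrpd2 and Snrpd3 were apart. Snrpe had the highest and Snrpd3 the lowest mean of the tested members on both scales. The lengths come from GENCODE M21, which may differ from the annotation the fragments were counted on.

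Small Sm genes have intronless copies elsewhere in the genome, and a fragment from such a copy cannot always be told from one of the gene. A search with the coding sequences found 13 other rows of the table at 90% identity or more over at least 80% of the coding length, 12 of them annotated as processed pseudogenes and 1 as lincRNA. Of these, 2 had a mean of at least 1 FPM. Gm8186, identical to the Snrpg coding sequence over its whole length, ranged from 7.0 FPM in WT 1 to 12.2 FPM in WT 2, with the KO libraries between 9.5 and 11.1. It stood at 17.6% to 21.8% of the Snrpg level in every library. Snrpert, 98.9% identical to Snrpe, measured 3.2, 4.0 and 4.2 in WT and 4.6, 3.9 and 3.6 in KO, which is 6.53% to 7.09% of the Snrpe level. Snrpert thus kept a nearly fixed proportion to Snrpe, while that of Gm8186 to Snrpg varied more, from its lowest in KO 1 to its highest in KO 4. How fragments were divided between a gene and its copy is uncertain. With the copies added to their genes, the KO minus WT difference of Snrpg was 0.11 and that of Snrpe 0.06. Snrpb and Snrpd3 had no such copy in the table.

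The genes that build, modify and join the ring were described from 7 lists, and limma called 0 of their 69 tested members in KO against WT. The counts by direction below are on the deposited scaling, and ERCC scaling moves the median of all genes to -0.20. Within series 22 the medians of all 7 lists were positive, from 0.07 (methylosome) to 0.31 (SMN complex), and within series 24 all 7 were negative, from -0.13 (LSm proteins) to -0.05 (export, capping and import). The medians of all genes had the same signs, at 0.11 within series 22 and -0.07 within series 24. KO values lay above all WT values for 1 gene each of the SMN complex, the LSm proteins and the export, capping and import list. They lay below all WT values for Prmt5 alone. Over all genes the shares were 1.09% above and 1.79% below. Of the SMN complex, which loads Sm proteins onto small nuclear RNA, 8 of 9 genes were tested, 7 with a positive and 1 with a negative difference (median 0.08). Gemin5, the member that recognises the RNA, had KO values above all WT values, at 49.8, 57.9 and 60.0 in WT against 66.6, 63.3 and 62.3 in KO. Its difference of 0.19 did not pass (SE 0.123, limma adjusted p = 1) and was -0.03 with ERCC scaling. Strap, which binds the SMN complex, had a difference of 0.01.

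Of the methylosome list 4 of 5 genes were tested, 2 positive and 2 negative, with a median of -0.02. Wdr77, the obligate partner of PRMT5, had a KO minus WT difference of -0.06 that was 0.06 without the series term. Wdr77 was higher in series 24, at 25.6, 21.5 and 26.1 in WT 4, KO 4 and KO 5 against 19.0, 19.4 and 19.1 in WT 1, WT 2 and KO 1. That series difference was 0.35 (limma adjusted p = 0.486).

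LSm proteins form related rings on U6 and on mRNA ends, and 10 of 10 were tested, 7 positive and 3 negative (median 0.04). Lsm10, which replaces an Sm protein in the ring of the U7 snRNP, measured 4.7, 8.4 and 8.2 in WT and 9.4, 11.0 and 8.7 in KO. Its groups did not overlap, and its difference of 0.39 did not pass (SE 0.234, limma adjusted p = 1). It was 0.18 with ERCC scaling and 0.20 without WT 1. Lsm11, its partner in that ring, had a series difference of 0.46 (limma adjusted p = 0.457). Of 8 genes of snRNA export, capping and snRNP import, 5 were positive and 3 negative (median 0.02). Ncbp2, a subunit of the nuclear cap-binding complex, had a difference of 0.10, and -0.12 with ERCC scaling.

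The proteins specific to U1 and U2 gave 11 positive and 4 negative differences of 15 (median 0.02), with Sf3b5, a part of the U2 SF3B complex, at 0.24, and at 0.02 with ERCC scaling. Snrnp70, the U1 70K protein, measured 274.0, 298.0 and 283.0 in WT 1, WT 2 and KO 1 and 381.9, 362.5 and 352.8 in WT 4, KO 4 and KO 5. This gap between the series, 0.38 on the log2 scale (SE 0.104), ran opposite to that of Snrpf and did not pass (limma adjusted p = 0.363). Genes of the U4/U6.U5 tri-snRNP gave 15 positive and 2 negative of 17 (median 0.09, at 0.24 within series 22 and -0.07 within series 24), with Prpf8, at the heart of the spliceosome, at 0.17 and -0.05 with ERCC scaling. Snu13, which binds U4, had a series difference of -0.30 (limma adjusted p = 0.595). The 7 genes of the minor spliceosome gave 5 positive and 2 negative (median 0.02), with Snrnp25 at 0.20 and Snrnp48 with a series difference of 0.15 (limma adjusted p = 0.737). In the series comparison limma likewise called 0 of the 69.

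**Figure D4:**
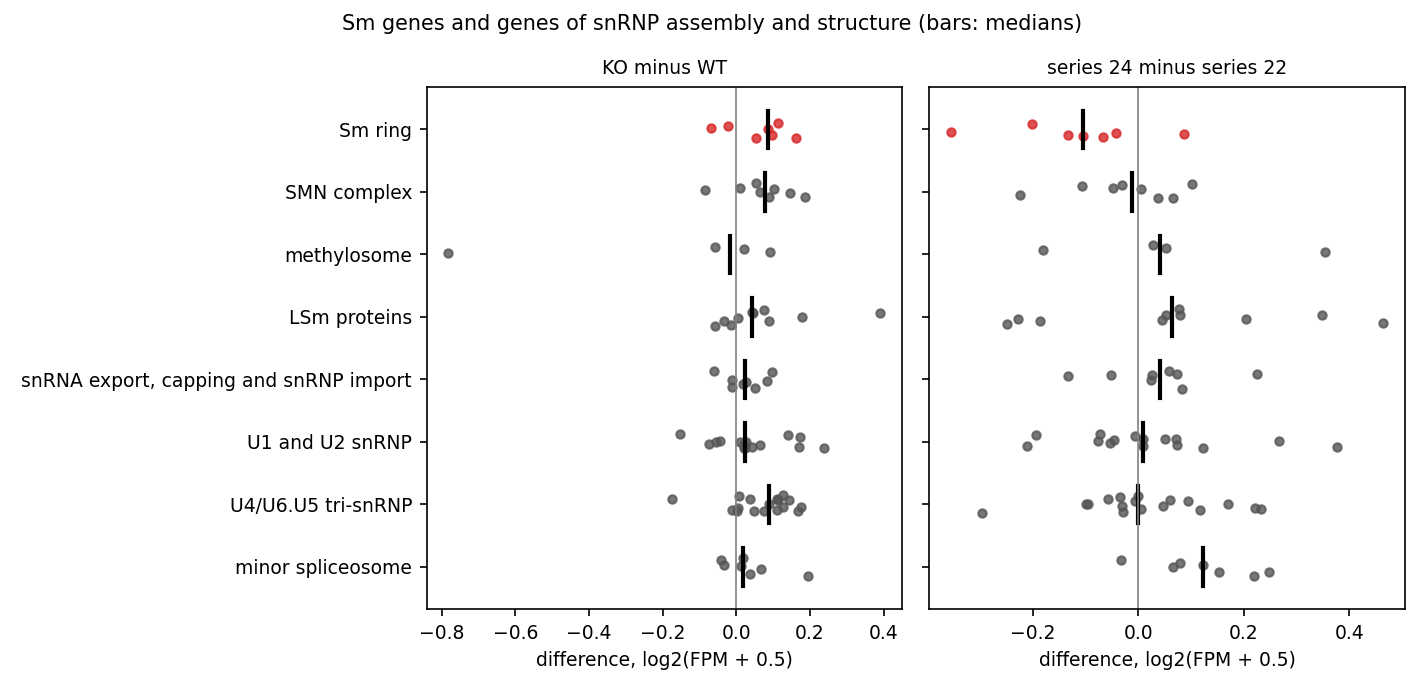
Difference on the log2(FPM + 0.5) scale (horizontal axes) of KO minus WT (left) and of series 24 minus series 22 (right) for each tested gene of the Sm ring (red) and of 7 related lists (grey), with the median of each list as a bar. The Sm ring medians are 0.09 on the left and -0.11 on the right, and Prmt5 is the lowest point on the left at -0.78.

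Genes outside these lists were ranked by how like they were to the mean centred profile of the 7 members, with Pearson's r over the 6 libraries as a description. The 3 most alike were Imp3, a protein of the U3 small nucleolar ribonucleoprotein (r = 0.996), Cct8, a subunit of the TRiC chaperonin (r = 0.996), and F8a, a huntingtin-associated protein (r = 0.993). Imp3 measured 33.9, 49.6 and 45.6 in WT and 57.7, 39.6 and 39.0 in KO, with WT 1 lowest and KO 1 highest as in Snrpb, Snrpd2, Snrpe and Snrpg. Of 10312 genes compared, 92 (0.892%) had an r of at least 0.95. All points share the scaling of their libraries.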

How the data were processed

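The name of the deposited table gives its unit as robust FPM. These are RPM-like values, deposited with 1 decimal, that the authors made by scaling the fragments of each gene in a library, and the way of scaling is not stated beyond that name. No count model was used. Among the tools in the submitters' processing notes are DESeq, DESeq2, featureCounts and STAR, without roles or versions. The build there is GRCm38.p3. Per the labels' protocols, ribosomal RNA was removed and stranded libraries were made. The sources used here do not give the strand setting of counting. The rounding hides whole fragments, so the depth of sequencing is unknown. Another 6 value columns matched no sample and were not used. The 92 ERCC spike-in rows were left out of the tests. The identifiers were matched to symbols without their version, for 54409 of 54532 gene rows.

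Genes with a mean of at least 1 FPM were kept (14944). Values were fitted as log2(FPM + 0.5), which understates changes of low genes, by limma 3.58.1 (R 4.3.3), using its trend of variance on mean, terms for library series and genotype, and Benjamini-Hochberg adjustment over all genes kept. A fit with the interaction of both terms tested whether the genotype difference differs between the series. A gene was called at a limma adjusted p below 0.05. The script was tested on simulated data. The design text calls the samples biological replicates. Copies were searched with blastn 2.17.0, and matplotlib 3.10.9 (Python 3.11.15) drew the figures. The members, lists and tests were chosen with earlier results of these data known. Named are the 8 members, Prmt5, the gene of smallest p of each list in the genotype and in the series comparison, the 3 genes of most like pattern and rows that share reads with a member.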

Additional observations from a re-analysis of the deposited data

How the results depend on the processing

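Members called stayed at 0 in all 3 comparisons under every alternative that was run. No library can be left out of the interaction where it is the only one of its genotype in a series, so the fits without WT 4 and without KO 1 were not run there. The numbers 1 and 4 are shared by both groups. Deviations of same-numbered libraries had correlations over genes of -0.16 and -0.41, and those of differently numbered libraries ran from -0.36 to 0.49. So few pairs cannot show whether the libraries were paired. The main fit does not take the numbers as pairs. With a replicate block in place of the series term limma called 5 genes, 1 higher and 4 lower, in KO against WT where it otherwise called 0, and Strap was at -0.063. Adding near-identical copies to their genes was chosen after seeing the data, and it turned no direction.

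Genes called between the series were 21, with 54 at a mean of at least 5, 11 with ERCC scaling, 58 with median-of-ratios scaling, 0 without a trend, 37 with a robust trend and 87 without the genotype term, and 0 (without WT 4 or KO 1) to 110 (without WT 1) with a library left out. The interaction gave 6 genes with ERCC scaling and 0 otherwise. The cause of these changes was not tested.

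For KO minus WT, ERCC scaling moved the median of all genes from 0.01 to -0.20 and turned Snrpb (-0.13), Snrpd2 (-0.056), Snrpd3 (-0.12), Snrpe (-0.16), Snrpg (-0.10), Gemin5 (-0.032), Strap (-0.21), Lsm11 (-0.14), Ncbp2 (-0.12), Prpf8 (-0.052), Snu13 (-0.14), Snrnp25 (-0.0078), Snrnp48 (-0.21), Imp3 (-0.079), Cct8 (-0.16) and F8a (-0.070). Total-sum scaling turned Snrpf (0.0083), median-of-ratios scaling Strap (-0.0025), and leaving out the series term Strap (-0.065), Wdr77 (0.060), Snrnp70 (0.072) and Snu13 (-0.022). With a library left out, the values ran from the fit without KO 1 to that without WT 4 as follows: Snrpb -0.31 to 0.48, Snrpd2 -0.047 to 0.37, Snrpd3 -0.026 to 0.22, Snrpe -0.17 to 0.28, Snrpf -0.076 to 0.030, Snrpg -0.15 to 0.38, Strap -0.28 to 0.30, Lsm11 -0.17 to 0.32, Snu13 -0.089 to 0.24, Sf3b5 -0.0013 to 0.48, Snrnp25 -0.32 to 0.71, Snrnp48 -0.11 to 0.14, Imp3 -0.21 to 0.49, Cct8 -0.095 to 0.22 and F8a -0.18 to 0.46. Wdr77 ran from -0.11 (without KO 5) to 0.0076 (without KO 4). The fits without KO 1 and without WT 4 repeat the differences within series 24 and within series 22, and are no separate check.

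For the series, ERCC scaling turned Snrpb (0.017), median-of-ratios scaling Prmt5 (-0.017) and Gemin5 (-0.032), and leaving out genotype Prmt5 (-0.21). Values ran from the fit without WT 4 to that without KO 1 as follows: Snrpb -0.44 to 0.35, Snrpd2 -0.31 to 0.10, Snrpd3 -0.037 to 0.21, Snrpe -0.29 to 0.16, Snrpg -0.40 to 0.13, Prmt5 -0.11 to 0.21, Gemin5 -0.084 to 0.16, Sf3b5 -0.17 to 0.31, Prpf8 -0.020 to 0.25, Snrnp25 -0.27 to 0.77, Strap -0.52 to 0.069, Imp3 -0.55 to 0.15, Cct8 -0.27 to 0.045 and F8a -0.50 to 0.15. The series fits without WT 4 and without KO 1 repeat the series differences within KO and within WT. For the interaction, median-of-ratios scaling turned Snrpd1 (0.064), Snrpf (0.087), Wdr77 (0.088), Ncbp2 (0.080) and Snrnp70 (0.11). Lsm10 ran from -0.69 (without WT 2) to 0.088 (without WT 1), Ncbp2 from -0.29 to 0.070 over the same fits, and Wdr77 from -0.24 (without KO 5) to 0.035 (without KO 4). None of the turned values was called before or after.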
